A study of Mus musculus with 8 samples.

Results

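The Hippo pathway and the genes switched on by its effector YAP were followed as a list of 10 genes in regenerating mouse liver. The list holds the coactivators Yap1 and Wwtr1, their DNA-binding partners Tead1 and Tead4, the kinases Lats1 and Lats2, and the target genes Ctgf, Cyr61, Ankrd1 and Amotl2. These 10 of the 55401 genes in the deposited tables were taken by name, and all 10 had enough counts to be tested. Ctgf and Cyr61 are called Ccn2 and Ccn1 in newer annotation, and their older names are used here. None of the 10 genes passed edgeR's adjusted test between the groups, which only 0.0503% of all 13908 tested genes passed. The knocked-down gene Tbl1xr1 did not pass it either (adjusted p = 0.290 in edgeR), so the absence of calls says little about these 10 genes. The smallest p-values belonged to Wwtr1, at 1.38-fold the control level in knockdown livers, and to Yap1. Yap1 was lower in each knockdown library than in any control library, as were 3.37% of all tested genes.

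Bulk RNA of whole liver was sequenced from C57BL/6J mice. In 4 libraries the mice had received a short hairpin RNA against Tbl1xr1 (shTbl1xr1), and in 4 libraries a control hairpin (shNC). In both groups an adeno-associated virus aimed at hepatocytes carried the hairpin, the virus was given 4 weeks before part of the liver was removed, and liver was taken on day 2 after that surgery. Every group therefore carried virus and had undergone surgery, and no unoperated or virus-free liver is compared here. No source used here states the promoter, the virus dose, or the age and sex of the mice. Nothing in the labels states that the numbered libraries of a group are different mice, so each p-value below speaks to the scatter of these libraries, part of which may be technical.

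The Hippo pathway is a kinase cascade that restrains organ growth. The kinases encoded by Stk3 and Stk4, with the scaffold Sav1, activate LATS kinases, and LATS kinases phosphorylate YAP and its relative TAZ, the product of Wwtr1, so that both are kept out of the nucleus and degraded. When the cascade is less active, YAP and TAZ enter the nucleus, bind TEAD transcription factors and raise the transcription of genes such as Ctgf and Cyr61. In mouse liver, forced YAP activity enlarges the organ, and in rodents YAP activity is known to increase after partial hepatectomy. YAP is regulated chiefly as a protein, which transcript levels do not measure. TBL1XR1, the product of the targeted gene, is a subunit of the nuclear receptor corepressor complexes that contain NCoR or SMRT.

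The targeted gene was lower in every shTbl1xr1 library. Tbl1xr1 had 2.38, 2.07, 9.24 and 15.9 CPM (counts scaled to library size and, between libraries, by the trimmed mean of M values) in shTbl1xr1 1 to 4, against 27.2, 35.9, 33.7 and 34.6 CPM in shNC 1 to 4. The groups did not overlap, and the mean in shTbl1xr1 was 22.5% of that in shNC. A two-sided exact permutation test of log2(CPM + 1) gave p = 0.0286, the smallest that 70 arrangements of 4 against 4 libraries allow. In edgeR's quasi-likelihood fit across all genes the log2 fold change was -2.07 with a standard error (SE) of 0.54 and an adjusted p of 0.290, while DESeq2 gave an adjusted p of 0.00863. The 2 libraries with the least Tbl1xr1 also stood apart otherwise. Library totals were 10895508 and 10728583 counts in shTbl1xr1 1 and 2, 26976205 and 36720879 counts in shTbl1xr1 3 and 4, and 25811763 to 27537235 counts in shNC. Mitochondrial transcripts made up 11.3% and 14.8% of counts in shTbl1xr1 1 and 2, 4.52% and 6.26% in shTbl1xr1 3 and 4, and 4.96% to 7.34% in shNC. On principal component 1, which held 59.3% of the variance, shTbl1xr1 1 and 2 lay at -86.0 and -86.4 and the other 6 libraries between 9.29 and 39.7. Depth, mitochondrial share and depth of knockdown cannot be told apart in these libraries, so values with shTbl1xr1 1 and 2 alone and with shTbl1xr1 3 and 4 alone are given beside the results that differ between them. The edgeR fit with shTbl1xr1 1 and 2 alone called 3073 of 14314 genes higher and 3021 lower at an adjusted p of 0.05. Passing that fit therefore sets a gene little apart. The hepatocyte markers were present throughout, but not all at equal levels. Albumin (Alb) had a mean of 46746 CPM in shTbl1xr1 and 47727 CPM in shNC. Of the 10 hepatocyte markers, 8 had a higher and 2, Alb among them, a lower fitted level in shTbl1xr1, with a median log2 fold change of 0.51.

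The DNA before the genes' start sites was searched for the letters that TEAD factors bind. TEAD factors bind the letters GGAATG, which read CATTCC on the other strand. RefSeq start sites on GRCm38.p6 were matched for 7 of the 10 genes (not Ctgf, Tead1 and Tead4), and 5 of these hold the motif on either strand within 250 bases upstream, as do 12.6% of all 32851 such windows and 14.4% of the 27025 genes that have one. The windows of Lats1 and Lats2 do not hold these letters. The windows of Yap1 (chr9:8004597-8004846, minus strand), Wwtr1 (chr3:57575911-57576160, minus strand) and Cyr61 (chr3:145649986-145650235, minus strand) are shown whole because these are both coactivators and a standard readout of them. Of Ankrd1 (chr19:36120037-36120066 and chr19:36119950-36119979, minus strand) and Amotl2 (chr9:102717727-102717756, plus strand) only the 30 bases around each motif are shown. All are written 5′ to 3′ on the gene's strand, and capitals mark the motif.
Yap1: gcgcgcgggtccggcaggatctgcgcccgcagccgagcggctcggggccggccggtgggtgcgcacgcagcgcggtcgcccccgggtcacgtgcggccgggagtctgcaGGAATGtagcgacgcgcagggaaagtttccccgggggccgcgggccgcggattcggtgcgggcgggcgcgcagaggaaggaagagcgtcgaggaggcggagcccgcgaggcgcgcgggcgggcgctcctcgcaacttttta
Wwtr1: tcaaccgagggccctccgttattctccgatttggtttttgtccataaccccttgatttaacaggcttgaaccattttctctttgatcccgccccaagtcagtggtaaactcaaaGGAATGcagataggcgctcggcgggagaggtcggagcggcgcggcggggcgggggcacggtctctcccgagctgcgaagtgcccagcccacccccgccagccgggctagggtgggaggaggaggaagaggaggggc
Cyr61: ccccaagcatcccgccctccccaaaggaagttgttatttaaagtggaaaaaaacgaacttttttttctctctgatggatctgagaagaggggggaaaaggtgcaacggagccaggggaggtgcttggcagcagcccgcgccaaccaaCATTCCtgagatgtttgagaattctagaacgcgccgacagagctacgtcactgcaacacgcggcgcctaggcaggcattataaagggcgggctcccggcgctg
Ankrd1 site 1: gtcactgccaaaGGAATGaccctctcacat
Ankrd1 site 2: gacactaagtctGGAATGaaaattcacctg
Amotl2 site: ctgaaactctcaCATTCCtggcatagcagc
The first base of the motif lies 141 bases before the RefSeq start of Yap1, 136 and 170 before the RefSeq starts of Wwtr1, 103 before that of Cyr61, 210 and 123 before that of Ankrd1 and 65 before that of Amotl2. The sites of Ankrd1 and Amotl2 are upstream of these RefSeq starts but lie inside the wider gene spans of the GENCODE annotation given below. A match is a description of the letters, and no binding was measured here.

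Of the coactivator transcripts, Yap1 had the lower and Wwtr1 the higher mean in shTbl1xr1, and neither passed the test. Yap1 (ENSMUSG00000053110.13, chr9:7931999-8004596 on GRCm38, minus strand) encodes YAP, the main transcriptional effector of the pathway. Its level was 60.1, 51.6, 62.5 and 61.9 CPM in shTbl1xr1 1 to 4, against 68.0, 70.7, 67.3 and 71.6 CPM in shNC 1 to 4. Every shTbl1xr1 library was below every shNC library, and shTbl1xr1 2 was the lowest. Over all 13908 tested genes, 3.37% were likewise lower in every shTbl1xr1 library. The means were 59.0 ± 5.04 CPM in shTbl1xr1 and 69.4 ± 2.07 CPM in shNC (SD, n = 4 each). The log2 fold change was -0.23 (SE 0.13, 95% confidence interval -0.53 to 0.06), and edgeR's adjusted p was 0.476, so the difference did not pass the test. With shTbl1xr1 3 and 4 alone it was -0.16, and under the 21 alternative settings it ran between -0.51 and -0.16.

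Wwtr1 (ENSMUSG00000027803.14, chr3:57455649-57575910, minus strand) encodes TAZ, the YAP paralog that binds the same TEAD factors. It had 18.9, 23.3, 24.1 and 25.5 CPM in shTbl1xr1 1 to 4, against 14.5, 14.7, 17.6 and 19.7 CPM in shNC 1 to 4. Of the shTbl1xr1 libraries, 3 lay above the highest shNC library, and shTbl1xr1 1 lay between shNC 3 and shNC 4. The means were 22.9 ± 2.84 CPM in shTbl1xr1 and 16.6 ± 2.46 CPM in shNC (SD, n = 4 each), and the fitted difference was 0.47 on the log2 scale (SE 0.16, 95% confidence interval 0.10 to 0.84). Wwtr1 was the only member with an unadjusted p under 0.05 in edgeR with all 8 libraries, trimmed-mean scaling and no covariates. Its p adjusted over all genes was 0.382 in that fit. In the alternative settings 0 to 5 members had an unadjusted p under 0.05. Unadjusted p-values under 0.05 with a higher level in shTbl1xr1 were found in 7.90% of all tested genes. The difference was at 0.34 with shTbl1xr1 1 and 2 alone and at 0.58 with shTbl1xr1 3 and 4 alone, and it kept its sign in all 21 alternative settings, with adjusted p-values of 0.139 to 0.742.

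**Figure D1:**
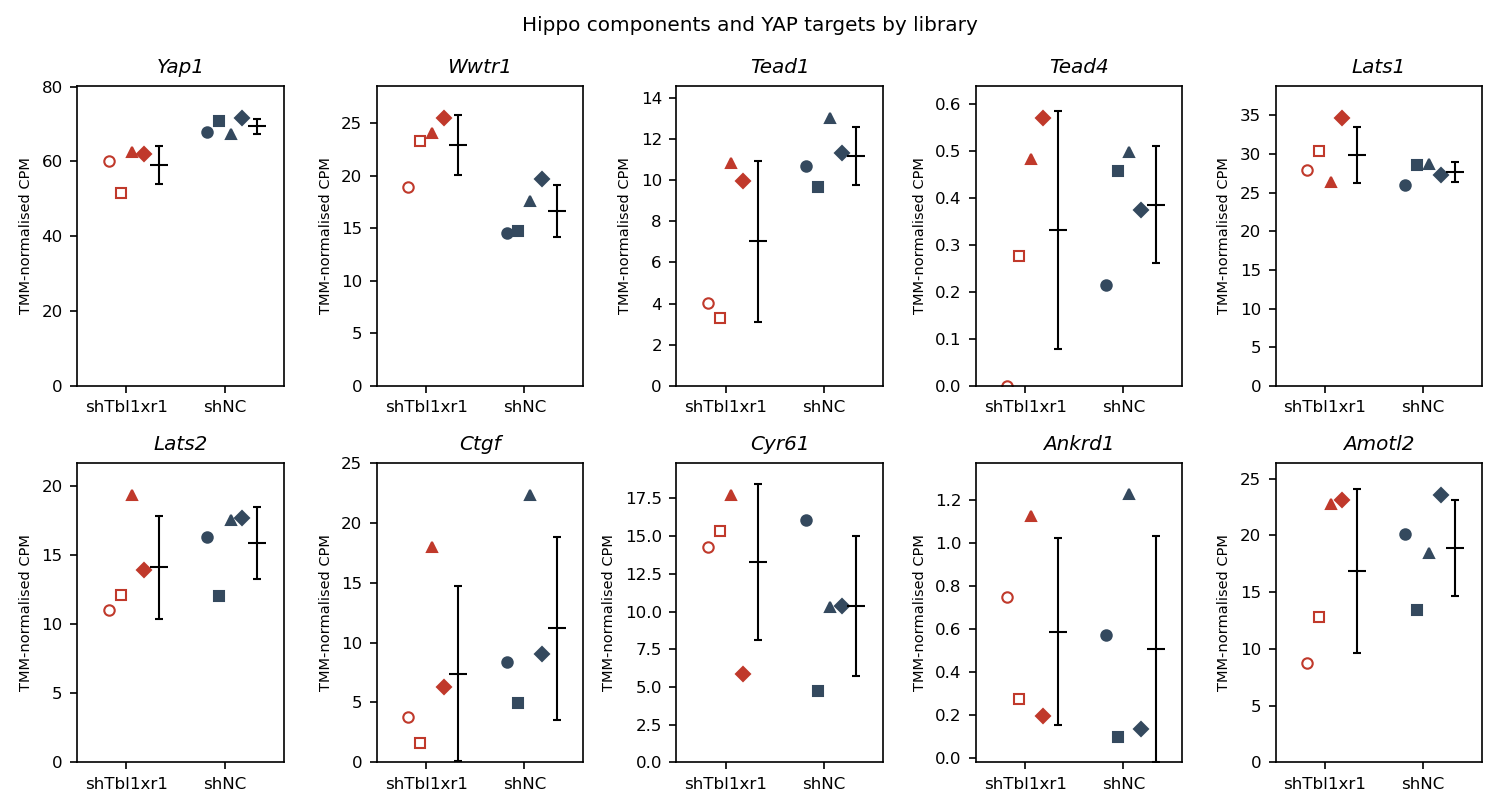
Level of each of the 10 genes in CPM (vertical axes, linear, each with its own range) in the 4 shTbl1xr1 libraries (red, open symbols for the shallow libraries 1 and 2) and the 4 shNC libraries (dark); circle, square, triangle and diamond are libraries 1 to 4, and bars are the mean ± SD of each group. All 4 Yap1 points of shTbl1xr1 lie below those of shNC, 3 of 4 Wwtr1 points lie above them, and the groups overlap for the other 8 genes.

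Because both transcripts are measured in the same library, their counts can also be set against each other without any scaling. There were 31.5, 45.2, 38.5 and 41.2 Wwtr1 counts for every 100 Yap1 counts in shTbl1xr1 1 to 4, against 21.4, 20.8, 26.1 and 27.5 in shNC 1 to 4. The groups did not overlap, with means of 39.1 ± 5.78 in shTbl1xr1 and 24.0 ± 3.34 in shNC (SD, n = 4 each). This ratio was formed after the values of both genes were seen, and its separation follows largely from those values. How many other gene pairs separate the groups in this way was not counted. The ratio is therefore given as a description with no test. It describes the level of one gene relative to the other in these libraries and not which of them differed.

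**Figure D2:**
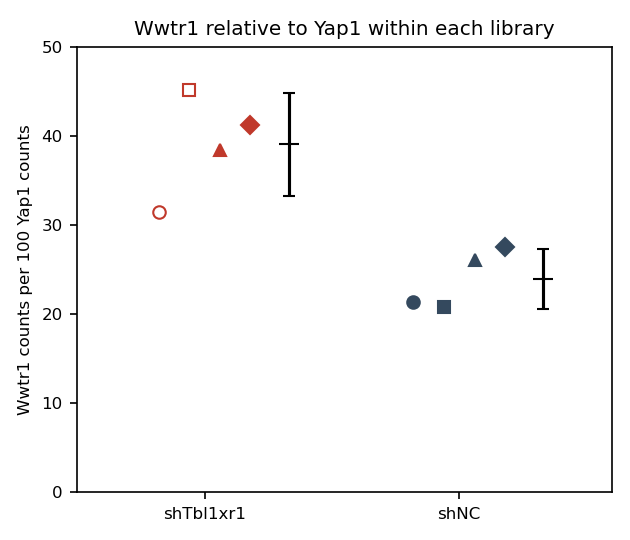
Wwtr1 counts per 100 Yap1 counts (vertical axis) in each shTbl1xr1 library (red, open symbols for the shallow libraries 1 and 2) and each shNC library (dark), with the mean ± SD of each group. The 4 shTbl1xr1 libraries lie between 31.5 and 45.2 and the 4 shNC libraries between 20.8 and 27.5.

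The TEAD factors, which carry YAP and TAZ to DNA, were not called in either direction in the fit of all 8 libraries. Tead1 (ENSMUSG00000055320.18, chr7:112679318-112906807, plus strand) had 4.01, 3.31, 10.8 and 9.94 CPM in shTbl1xr1 1 to 4, against 10.7, 9.67, 13.0 and 11.3 CPM in shNC 1 to 4. The shallow libraries shTbl1xr1 1 and 2 held less than any shNC library, whereas shTbl1xr1 3 and 4 lay within the shNC range. In the fit of all 8 libraries its log2 fold change was -0.62 (SE 0.36, 95% confidence interval -1.42 to 0.18), with an adjusted p of 0.480 in edgeR. Against the same 4 shNC libraries it was -1.61 with shTbl1xr1 1 and 2 alone (adjusted p = 0.000569) and -0.11 with shTbl1xr1 3 and 4 alone (adjusted p = 0.848). The first of these fits called 3021 of all 14314 genes it tested lower. The part that depth and the mitochondrial share of these libraries play in the Tead1 difference was not tested.

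Tead4 (ENSMUSG00000030353.15, chr6:128224288-128300823, minus strand) was near the limit of detection. Its counts were 0, 2, 15 and 23 in shTbl1xr1 1 to 4, against 6, 14, 15 and 11 in shNC 1 to 4. The count of 0 in shTbl1xr1 1 allows a level of up to 0.376 CPM (3 counts, counting error only), close to the shNC mean of 0.386 ± 0.125 CPM (SD, n = 4). The log2 fold change of 0.03 (SE 0.55, 95% confidence interval -1.20 to 1.26) changed sign in 12 of 20 alternative settings, so a difference was not detectable at this depth. Tead2 and Tead3, the other TEAD genes, were looked at after their values were seen. Tead2 had 1.75, 1.38, 2.13 and 1.54 CPM in shTbl1xr1 1 to 4, against 1.54, 1.40, 1.39 and 1.498 CPM in shNC 1 to 4. Tead3 had 5.63, 5.52, 6.70 and 7.02 CPM in shTbl1xr1 1 to 4, against 8.18, 6.76, 7.37 and 6.81 CPM in shNC 1 to 4. Their groups overlapped, and neither passed edgeR's test, with adjusted p-values of 0.699 for Tead2 and 0.586 for Tead3.

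The LATS kinases, which phosphorylate and so restrain YAP and TAZ, were not called in either direction. Lats1 (ENSMUSG00000040021.13, chr10:7681214-7716460, plus strand) had 27.9, 30.4, 26.4 and 34.6 CPM in shTbl1xr1 1 to 4, against 25.9, 28.6, 28.7 and 27.3 CPM in shNC 1 to 4. The libraries shTbl1xr1 2 and 4 lay above the shNC range and the other shTbl1xr1 libraries within it. Its log2 fold change was 0.11 (SE 0.14, 95% confidence interval -0.20 to 0.42), with an adjusted p of 0.737 in edgeR.

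Lats2 (ENSMUSG00000021959.16, chr14:57689662-57758388, minus strand), which in human and mouse cells is itself raised by YAP as a feedback, had 11.02, 12.2, 19.4 and 13.9 CPM in shTbl1xr1 1 to 4. It had 16.3, 12.1, 17.5 and 17.7 CPM in shNC 1 to 4. The lowest and the highest of the 8 values were both from shTbl1xr1 libraries. The log2 fold change was -0.16 (SE 0.21, 95% confidence interval -0.64 to 0.32), with an adjusted p of 0.751 in edgeR. It was -0.46 with shTbl1xr1 1 and 2 alone and 0.06 with shTbl1xr1 3 and 4 alone. For both kinases the interval leaves out a doubling and a halving of the level, that is, log2 fold changes of 1 and -1.

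Among the target genes, the secreted matricellular proteins Ctgf and Cyr61 varied within each group by more than the group means differed. Ctgf (ENSMUSG00000019997.11, chr10:24595442-24598683, plus strand), connective tissue growth factor, had 3.76, 1.66, 18.0 and 6.27 CPM in shTbl1xr1 1 to 4, against 8.40, 4.93, 22.3 and 9.03 CPM in shNC 1 to 4. Library 3 was the highest and library 2 the lowest in both groups. The means were 7.41 ± 7.29 CPM in shTbl1xr1 and 11.2 ± 7.66 CPM in shNC (SD, n = 4 each), and the log2 fold change was -0.53 (SE 0.66, 95% confidence interval -2.0 to 0.94, adjusted p = 0.733 in edgeR). It was -2.03 with shTbl1xr1 1 and 2 alone, 0.11 with shTbl1xr1 3 and 4 alone and -1.44 without shTbl1xr1 3, and of the 8 fits that leave out 1 library the sign turned in 1, at 0.04 without shNC 3. The values of shTbl1xr1 1 and 2 rest on 30 and 12 counts.

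Cyr61 (ENSMUSG00000028195.4, chr3:145646976-145649981, minus strand), an immediate early gene as well as a YAP target, had 14.3, 15.3, 17.7 and 5.88 CPM in shTbl1xr1 1 to 4. It had 16.1, 4.70, 10.3 and 10.4 CPM in shNC 1 to 4. The low values came from a different library number in each group, and the groups overlapped. The means were 13.3 ± 5.16 CPM in shTbl1xr1 and 10.4 ± 4.64 CPM in shNC (SD, n = 4 each), and the fitted log2 difference was 0.35 (SE 0.41, 95% confidence interval -0.56 to 1.27, adjusted p = 0.716 in edgeR). Under the 21 alternative settings the value ran between 0.04 and 0.65.

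Ankrd1 (ENSMUSG00000024803.9, chr19:36111961-36120099, minus strand), an ankyrin repeat protein best known from heart muscle and a standard YAP readout, had 6, 2, 35 and 8 counts in shTbl1xr1 1 to 4, against 16, 3, 37 and 4 counts in shNC 1 to 4. These are 0.751, 0.276, 1.13 and 0.198 CPM in shTbl1xr1 1 to 4, against 0.574, 0.0980, 1.23 and 0.136 CPM in shNC 1 to 4. Library 3 was again the highest in both groups, and the groups overlapped throughout. The log2 fold change was 0.24 (SE 0.83, 95% confidence interval -1.62 to 2.10, adjusted p = 0.915 in edgeR), and it was -0.53 without shTbl1xr1 3, -0.11 without shNC 2, -0.075 without shNC 4 and 1.16 without shNC 3.

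Amotl2 (ENSMUSG00000032531.15, chr9:102716672-102733418, plus strand) encodes an angiomotin family protein that is both a YAP target and a restraint on YAP. It had 8.76, 12.8, 22.7 and 23.1 CPM in shTbl1xr1 1 to 4, against 20.1, 13.4, 18.5 and 23.6 CPM in shNC 1 to 4. As with Tead1, the shallow libraries held the lowest values, and shTbl1xr1 3 and 4 lay in the shNC range. With all libraries the log2 fold change was -0.14 (SE 0.31, 95% confidence interval -0.84 to 0.56, adjusted p = 0.852 in edgeR). Against the same shNC libraries it was -0.81 with shTbl1xr1 1 and 2 alone (adjusted p = 0.0312), 0.28 with shTbl1xr1 3 and 4 alone (adjusted p = 0.668) and 0.06 without shTbl1xr1 1.

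Several of these genes are known from liver cells other than hepatocytes, Ctgf from stellate and bile duct cells among them. In bulk liver, fewer cells of a type and less RNA per cell cannot be told apart. The 14 stellate and fibroblast markers summed to 216, 208, 668 and 375 CPM in shTbl1xr1 1 to 4, against 411, 361, 625 and 515 CPM in shNC 1 to 4. Library 3 was the highest and library 2 the lowest in both groups, as for Ctgf. None of the 14 markers passed edgeR's adjusted test, 12 had a lower fitted level in shTbl1xr1, and the median log2 fold change was -0.39. As a mean log2 difference from shNC the median was -1.35 in shTbl1xr1 1 and 2 and -0.16 in shTbl1xr1 3 and 4. The 2 with an unadjusted p under 0.05 in edgeR were Dcn, the matrix proteoglycan decorin (-0.80, adjusted p = 0.382), and Colec11, a collectin made by stellate cells (-0.54, adjusted p = 0.390). Both were lower in every shTbl1xr1 library, as were 3.37% of all tested genes. Dcn was at -1.42 with shTbl1xr1 1 and 2 alone (adjusted p = 0.000255) and at -0.38 with shTbl1xr1 3 and 4 alone, and Colec11 at -0.48 and -0.60. The 7 mesothelial markers summed to 0.250, 1.80, 20.4 and 2.88 CPM in shTbl1xr1 1 to 4, against 7.14, 2.87, 16.3 and 14.3 CPM in shNC 1 to 4. Of these, Wt1, Lrrn4 and Muc16 had 0 counts in shTbl1xr1 1 and 2. The 9 bile duct markers summed to 53.7, 69.9, 250 and 72.2 CPM in shTbl1xr1 1 to 4, against 60.9, 43.8, 129 and 42.2 CPM in shNC 1 to 4. Most of that sum in library 3 was Spp1, at 202 CPM in shTbl1xr1 3 and 99.0 CPM in shNC 3. Spp1 is also on the list of YAP-responsive liver and fibroblast genes used below. Library 3 thus held the most of these 3 marker sets in each group, beside the most Ctgf and Ankrd1. This was not particular to these sets. The endothelial and smooth muscle sums were also highest there, at 401 and 48.0 CPM in shTbl1xr1 3 and 384 and 77.6 CPM in shNC 3. The macrophage sum was highest in library 3 of neither group. The hepatocyte sum was lowest there in each group, at 55864 CPM in shTbl1xr1 3 and 57603 CPM in shNC 3. Of the 8 bile duct markers tested, 6 had a higher and 2 a lower fitted level in shTbl1xr1, with a median log2 fold change of 0.60. As a mean log2 difference from shNC that median was 0.16 in shTbl1xr1 1 and 2 and 0.68 in shTbl1xr1 3 and 4. All 6 tested mesothelial markers had a lower fitted level, with a median of -0.48. No marker of these 2 lists passed edgeR's adjusted test. The part of these cell types in the levels of the target genes was not tested.

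**Figure D3:**
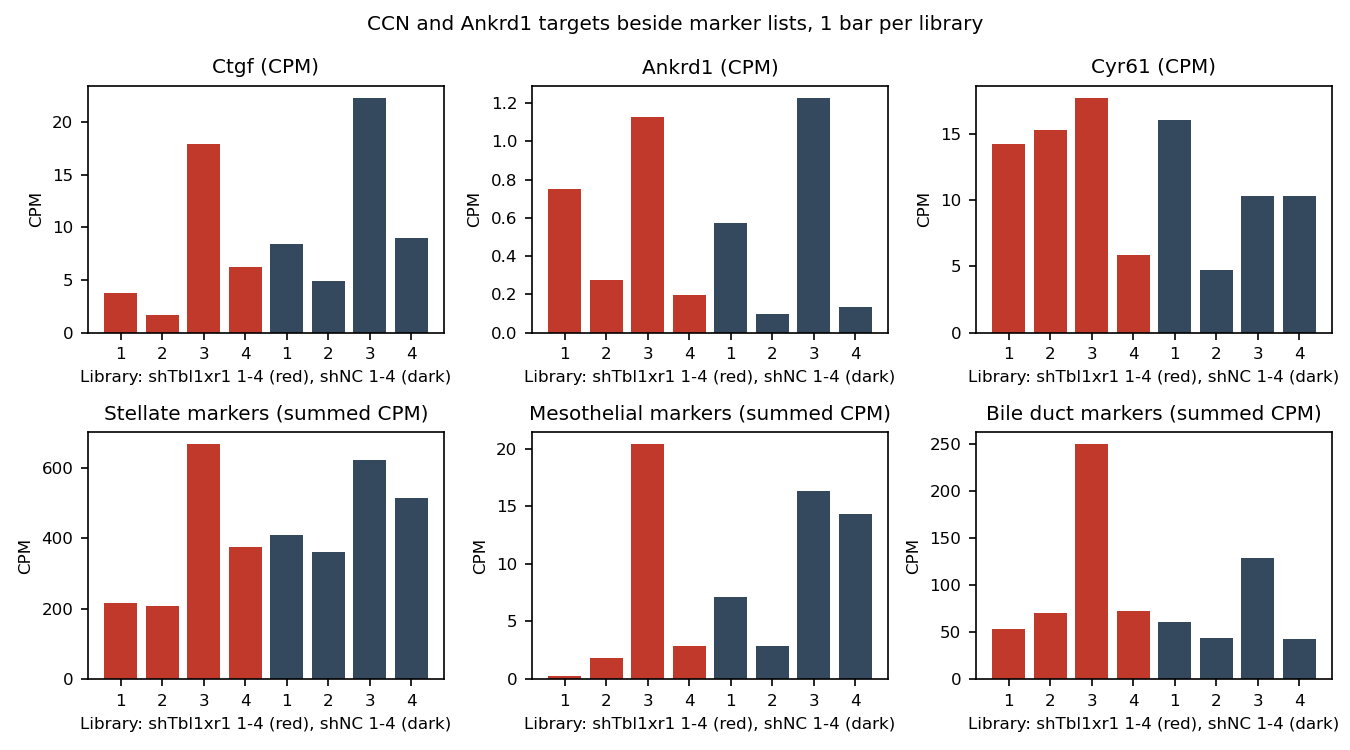
Levels of Ctgf, Ankrd1 and Cyr61 (upper row, CPM) and summed levels of the stellate, mesothelial and bile duct markers (lower row, CPM), 1 bar per library with shTbl1xr1 1 to 4 in red at the left and shNC 1 to 4 dark at the right. Library 3 is the tallest bar of its group in 5 of the 6 panels in both groups, and for Cyr61 in shTbl1xr1 only.

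Among the remaining marker lists, the endothelial and macrophage sums were lowest in the shallow libraries. The endothelial markers summed to 241, 216, 401 and 364 CPM in shTbl1xr1 1 to 4 and to between 347 and 384 CPM in shNC, with a lower fitted level in shTbl1xr1 for 12 of 12 tested markers. The macrophage and Kupffer cell markers summed to 283, 304, 624 and 665 CPM in shTbl1xr1 1 to 4 and to between 541 and 873 CPM in shNC, with a lower fitted level for 10 of 10. The smooth muscle markers summed to 19.5 to 48.0 CPM in shTbl1xr1 and 16.2 to 77.6 CPM in shNC. The 10 hepatocyte markers summed to 55864 to 93703 CPM in shTbl1xr1 and 57603 to 76400 CPM in shNC, with a median log2 fold change of 0.51. As a mean log2 difference from shNC that median was 0.84 in shTbl1xr1 1 and 2 and 0.02 in shTbl1xr1 3 and 4, and it was -0.67 and 0.07 for the endothelial and -1.32 and -0.11 for the macrophage list. Hgd and Fah, enzymes of tyrosine breakdown, had the smallest p-values of the hepatocyte list, at 0.72 (adjusted p = 0.326) and 0.65 (adjusted p = 0.411) in edgeR. With shTbl1xr1 1 and 2 alone they were at 0.88 and 1.03, and with shTbl1xr1 3 and 4 alone at 0.54 and 0.13. None of the markers in these lists passed edgeR's adjusted test with all 8 libraries, and DESeq2 called 1, Hgd (adjusted p = 0.0164).

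As a list, the 10 genes were centred near no difference. Their fitted levels were higher in shTbl1xr1 for 5 and lower for 5, beside 50.6% higher and 49.4% lower among all 13908 tested genes, and their median log2 fold change was -0.06, beside 0.01 over all tested genes. By edgeR's quasi-likelihood test 0 of 10 were called at an adjusted p of 0.05, where 0.0503% of all tested genes were, 6 of them (0.0431%) higher and 1 (0.00719%) lower in shTbl1xr1. At an unadjusted p under 0.05 there was 1 of 10, beside 11.6% of all tested genes, 7.90% higher and 3.71% lower in shTbl1xr1. DESeq2 and limma-voom also called 0 of the 10 at an adjusted p of 0.05, where DESeq2 called 1.55% of the 15051 genes it tested higher and 0.259% lower. Groups did not overlap for 1 of 10, Yap1, beside 7.25% of all tested genes, 3.88% with shTbl1xr1 higher and 3.37% with it lower. These shares are near the background. The members' median was -0.38 in shTbl1xr1 1 and 2 and 0.14 in shTbl1xr1 3 and 4, each as a mean log2 difference from shNC, where the medians of all tested genes were -0.09 and -0.0014.

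**Figure D4:**
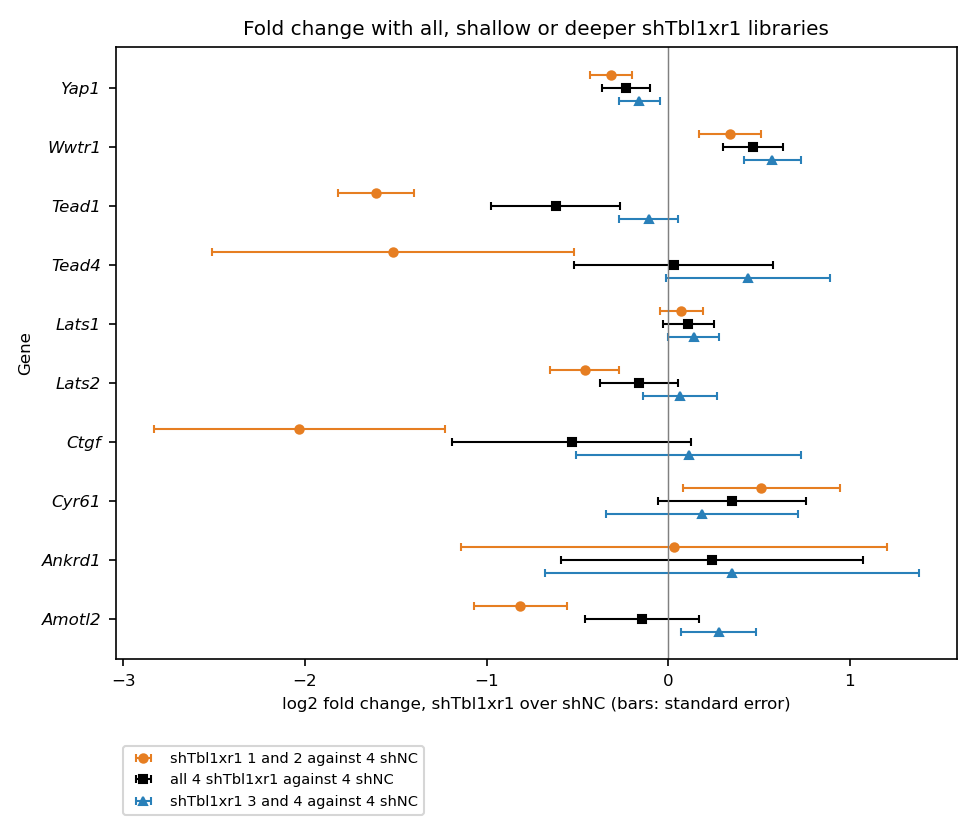
Log2 fold change of each of the 10 genes, shTbl1xr1 over shNC (horizontal axis), fitted with shTbl1xr1 1 and 2 (orange circles), all 4 libraries (black squares) or shTbl1xr1 3 and 4 (blue triangles) against the 4 shNC libraries; bars are standard errors. Yap1 stays below 0 and Wwtr1, Lats1, Cyr61 and Ankrd1 above 0 in all 3 fits, whereas Tead1 is at -1.61, -0.62 and -0.11 and Amotl2 at -0.81, -0.14 and 0.28 in these fits.

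By edgeR's adjusted test none of the listed genes around the 10 members was called in the fit of all 8 libraries. Of the other core kinase cassette, which brings the signal to LATS, 7 of 7 genes were tested, 1 had a higher and 6 a lower fitted level in shTbl1xr1, and the median log2 fold change was -0.28. As a mean log2 difference from shNC the median was -0.38 in shTbl1xr1 1 and 2 and -0.03 in shTbl1xr1 3 and 4. None passed edgeR's adjusted test, and only Mob1b, a LATS-binding adaptor, had an unadjusted p under 0.05 (-0.41, adjusted p = 0.423). It had 25.3, 25.8, 31.0 and 40.8 CPM in shTbl1xr1 1 to 4, against 37.8, 39.6, 44.4 and 42.7 CPM in shNC 1 to 4, a log2 fold change of -0.69 with shTbl1xr1 1 and 2 alone (adjusted p = 0.00277) and -0.20 with shTbl1xr1 3 and 4 alone. Stk3, a kinase upstream of LATS, was picked out after its values were seen because it was lower in every shTbl1xr1 library. Over all tested genes, 3.37% were likewise lower in each. Its level was 6.76, 8.15, 7.96 and 8.60 CPM in shTbl1xr1 1 to 4, against 8.93, 10.03, 9.46 and 10.4 CPM in shNC 1 to 4. For Stk3 the log2 fold change was -0.30 (SE 0.16, adjusted p = 0.453 in edgeR). Its partner Stk4 was the 1 gene with a higher fitted level, at 0.17 (SE 0.13, adjusted p = 0.577 in edgeR). Stk4 had 19.8, 18.6, 22.4 and 20.1 CPM in shTbl1xr1 1 to 4, against 17.9, 17.1, 19.4 and 17.4 CPM in shNC 1 to 4.

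Upstream regulators, such as the junction and polarity proteins that start the cascade, numbered 22, all tested. Of these 7 had a higher and 15 a lower fitted level in shTbl1xr1, with a median log2 fold change of -0.17, and 0 passed edgeR's adjusted test. In shTbl1xr1 1 and 2 the median was -0.63 and in shTbl1xr1 3 and 4 it was 0.07, each as a mean log2 difference from shNC. Mark4, a kinase that in human cells hinders the Hippo kinase complex, had 18.8, 15.5, 17.3 and 16.1 CPM in shTbl1xr1 1 to 4, against 13.5, 13.3, 11.6 and 12.8 CPM in shNC 1 to 4. Every shTbl1xr1 library was higher, as for 3.88% of all tested genes, and the log2 fold change was 0.40 (adjusted p = 0.382 in edgeR). Map4k2, a kinase that can phosphorylate LATS, had 5.88, 5.25, 8.37 and 9.45 CPM in shTbl1xr1 1 to 4, against 9.62, 11.9, 11.4 and 11.7 CPM in shNC 1 to 4. Here every shTbl1xr1 library was lower, as for 3.37% of all tested genes, and the log2 fold change was -0.60 (adjusted p = 0.390 in edgeR). It was -1.0 with shTbl1xr1 1 and 2 alone (adjusted p = 0.00242) and -0.32 with shTbl1xr1 3 and 4 alone. The other TEAD genes and TEAD cofactors had 6 of 9 genes tested, 1 higher and 5 lower in fitted level, a median of -0.19 (-0.79 in shTbl1xr1 1 and 2 and 0.13 in shTbl1xr1 3 and 4) and no call in edgeR with all 8 libraries.

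Further YAP targets were taken from a published cancer signature and from genes reported to respond to YAP in liver or fibroblasts. Of the signature's other 17 genes 15 were tested, 6 with a higher and 9 with a lower fitted level in shTbl1xr1, a median log2 fold change of -0.05, and 0 calls at an adjusted p of 0.05 or at an unadjusted p under 0.05 in edgeR. Of the 19 liver and fibroblast genes 16 were tested, 7 higher and 9 lower in fitted level, with a median of -0.10 and 0 adjusted calls in edgeR and in limma-voom, while DESeq2 called 1, Ccnd1. The medians of both target lists were lower in shTbl1xr1 1 and 2, at -0.74 for the signature and -0.76 for the liver and fibroblast genes, than in shTbl1xr1 3 and 4, at 0.22 and 0.27. Ccnd1, the cyclin that drives entry into the cell cycle, had 68.7, 49.7, 107 and 94.6 CPM in shTbl1xr1 1 to 4, against 229, 198, 146 and 196 CPM in shNC 1 to 4. All shTbl1xr1 libraries were below all shNC libraries, as for 3.37% of all tested genes. The log2 fold change was -1.26 (SE 0.26), with an adjusted p of 0.18 in edgeR, 0.000812 in DESeq2, 0.162 in limma-voom and 0.0349 in limma-voom with sample weights. It was -1.70 with shTbl1xr1 1 and 2 alone (adjusted p = 0.000501) and -0.94 with shTbl1xr1 3 and 4 alone (adjusted p = 0.2). Myc, a growth-promoting transcription factor, had 8.01, 4.28, 10.2 and 39.4 CPM in shTbl1xr1 1 to 4, against 4.52, 5.68, 6.94 and 4.39 CPM in shNC 1 to 4. Its log2 fold change of 1.56 (adjusted p = 0.405) rested largely on shTbl1xr1 4, and it was 0.50 without that library and 0.19 with shTbl1xr1 1 and 2 alone. Both Ccnd1 and Myc are known to answer also to growth signals other than YAP.

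Levels can be compared between genes only per transcript length, for which the deposited TPM values (transcripts scaled by length to a fixed library total) were used. In shNC, Yap1 stood highest at 23.7 ± 2.21 TPM (SD, n = 4). Cyr61 at 7.38 ± 2.95, Ctgf at 6.78 ± 5.05, Amotl2 at 6.48 ± 1.52, Lats1 at 5.12 ± 0.556, Wwtr1 at 4.82 ± 0.945 and Lats2 at 4.76 ± 1.13 TPM followed. Neighbours within that run had overlapping ranges and were not resolved from each other. Tead1 came lower at 1.67 ± 0.190 TPM, below the lowest library of Lats2, and Ankrd1 at 0.388 ± 0.406 and Tead4 at 0.215 ± 0.0806 TPM were the lowest pair, with overlapping ranges. In shTbl1xr1 the means over all 4 libraries were Yap1 at 15.4 ± 7.79, Cyr61 at 6.92 ± 4.31, Amotl2 at 5.22 ± 3.70, Wwtr1 at 5.13 ± 2.67, Lats1 at 4.19 ± 2.04, Ctgf at 4.16 ± 4.89, Lats2 at 3.26 ± 1.86, Tead1 at 0.988 ± 0.807, Ankrd1 at 0.355 ± 0.354 and Tead4 at 0.278 ± 0.219 TPM (SD, n = 4). TPM is not scaled between libraries by the trimmed mean, and in it Yap1 was 9.87 and 7.48 in shTbl1xr1 1 and 2, and 22.4 and 21.7 in shTbl1xr1 3 and 4. Over the 4 shTbl1xr1 libraries the ranges of all neighbours in that order overlapped, so the ranges do not resolve the order. Within each shTbl1xr1 library Yap1 was the highest of the 10 genes. The next highest was at 5.09 (Cyr61), 4.82 (Cyr61), 13.4 (Cyr61) and 8.63 TPM (Amotl2) in shTbl1xr1 1 to 4. Lats2 was above Tead1 in each, at 1.94, 1.58, 5.58 and 3.92 TPM beside 0.28, 0.31, 1.55 and 1.81 TPM. In shTbl1xr1 3 and 4 alone the means were 22.1 TPM for Yap1, 8.88 for Cyr61, 8.41 for Amotl2, 7.51 for Ctgf, 7.44 for Wwtr1, 5.86 for Lats1 and 4.75 for Lats2.

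The members differed widely in how steady they were between control libraries. In shNC the SD of log2 CPM was 0.0430 for Yap1 and 0.0686 for Lats1, and only 1.89% and 6.65% of all tested genes had a lower SD. At the other end, the SD was 0.897 for Ctgf, 0.731 for Cyr61 and 1.37 for Ankrd1, with 97.7%, 95.8% and 99.4% of tested genes below them. Ankrd1 is also among the lowest genes, at 3 to 37 counts in shNC, where counting error is large. Wwtr1 and Tead1 were in the middle, at 0.210 and 0.178. Both coactivators and both LATS kinases thus had a lower SD in these 4 libraries than Ctgf, Cyr61 and Ankrd1.

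For each member the genes with the most similar profile were sought, measured as the root mean square difference of log2 CPM over the 8 libraries after each gene was centred. Yap1 was nearest to Ssrp1 (0.0541) and Plekha8 (0.0542), Lats1 to Ahcyl1 (0.0338) and Prep (0.0512), Tead1 to Fut11 (0.0670) and Pkd2 (0.0887), and Wwtr1 to Kdsr (0.122) and Sh3bgrl2 (0.123). Lats2 was nearest to Bgn (0.114) and Slc44a2 (0.12), and Amotl2 to Kifc2 (0.150) and Rapgef3 (0.160). Among the targets, Ctgf was nearest to the matrix genes Aebp1 (0.256) and Col1a1 (0.258), where the median over all tested genes was 1.13. Col1a1 is a stellate and fibroblast marker of the list summed above. Cyr61 was nearest to Tpm2 (0.268) and Selenom (0.283), Ankrd1 to Tnnt2 (0.451) and Foxs1 (0.525), and Tead4 to Dclre1c (0.250) and Slc2a3 (0.251). No member was the nearest gene of another. By this measure, which is also small for 2 genes that each vary little, the closest pair of members was Yap1 and Lats1 (0.224). That difference is larger than the SD of either gene over the 8 libraries (0.154 and 0.132), so it does not show that their profiles were alike.

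The mix of transcripts of each gene is a separate readout, seen in the abundance-weighted transcript length that RSEM gives. The length did not vary for Wwtr1 (4697 bases), Lats1 (7209 bases) and Cyr61 (2019 bases), so the other 7 members were tested. Amotl2 had the smallest p, with 3522, 3314, 3967 and 3819 bases in shTbl1xr1 1 to 4, against 3791, 4118, 4012 and 4060 bases in shNC 1 to 4. The groups overlapped, and the log2 difference was -0.13 (SE 0.06, adjusted p = 0.691 in limma). The largest log2 difference was that of Tead4, at -0.73 (SE 0.55, adjusted p = 0.691 in limma), with means of 1860 ± 1058 bases in shTbl1xr1 and 2610 ± 508 bases in shNC (SD, n = 4 each), and it rests on 0 to 23 counts per library. Yap1 averaged 4069 ± 66.2 bases in shTbl1xr1 and 4016 ± 90.8 bases in shNC (SD, n = 4 each). In limma's test 0 of the 7 members differed in length at an adjusted p of 0.05 or at an unadjusted p under 0.05, and of all 11614 tested genes 0% were called, with 504 at an unadjusted p under 0.05.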

How the data were processed

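Per the labels, TRIzol was used to extract RNA and an MGIEasy kit to prepare libraries. Per the submitters' processing notes, build mm10 and the tools RSEM, STAR and DESeq2 1.30.1 were used; options, strandedness and annotation version are not given in these sources. Per the file headers, the authors deposited for each library a table of RSEM expected counts with transcript lengths, TPM and FPKM per gene. The deposited FPKM values were not tested, and the deposited TPM values served to order levels. RSEM divides fragments that fit several genes among them, so values of close paralogs carry that uncertainty, and without a stated strand setting overlapping antisense transcripts cannot be told apart.

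GENCODE mouse release 21 (GRCm38) supplied symbols and coordinates, with 55141 of 55401 identifiers matched without the version suffix and 9 of 10 members matched with it. Promoter sequences came from RefSeq on GRCm38.p6. Expected counts were rounded to whole numbers, filtered with filterByExpr (13908 genes kept), scaled by the trimmed mean of M values and tested in edgeR 4.0.16 (R 4.3.3) by a two-sided quasi-likelihood F test, 4 against 4 libraries without covariates, with Benjamini-Hochberg adjustment over all tested genes and a threshold of 0.05. Log2 transcript lengths were tested in limma 3.58.1. DESeq2 1.42.0, limma-voom, a surrogate variable (sva 3.50.0), other scalings and filters, a replicate block, a depth covariate and left-out libraries were alternatives. The procedure was tested on simulated data. Of the 8 libraries 2 were shallow, so low levels carry more counting error there, and floors cover counting error only. No library pair held identical values (28 pairs).

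The members and the 13 gene lists were chosen with earlier results of these data known. All members were named whatever their values, together with Tbl1xr1, up to 3 genes per direction and list with the smallest unadjusted p under 0.05, and the 2 nearest profiles of each member.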

Additional observations from a re-analysis of the deposited data

Results flagged for a closer look

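In 64 groups of 4 libraries checked for a library far from the other 3, 3 stood apart. Chance gives about 1 group in 20, a share near that found. The 64 include the transcript lengths of Wwtr1, Lats1 and Cyr61, which did not vary and could not be flagged. Ctgf had an abundance-weighted transcript length of 2117 bases in shTbl1xr1 2, against 2398 to 2405 bases in the other shTbl1xr1 libraries, and this value rests on 12 counts. Myc had 39.4 CPM in shTbl1xr1 4, against 4.28 to 10.2 CPM in the other shTbl1xr1 libraries. Prom1, a bile duct marker, had 9.28 CPM in shTbl1xr1 3, against 0.967 to 1.83 CPM in the other shTbl1xr1 libraries. That is the library with the highest bile duct, stellate, mesothelial and endothelial marker sums.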

How the results depend on the processing

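No member was higher at an adjusted p of 0.05 in any of the 21 alternatives, and none was lower except in the fit of shTbl1xr1 1 and 2 alone, which called 2 (Tead1 and Amotl2). That fit called 3021 of all 14314 tested genes lower, a share near that of 2 in 10 members. No alternative for transcript length called a member. Yap1, Wwtr1, Tead1 and Cyr61 kept their sign throughout. The sign turned for Tead4 under upper quartile scaling (-0.025), library size alone (-0.16), no filter (-0.011), DESeq2 (-0.016), voom (-0.17), voom with weights (-0.55), the replicate block (-0.18) and shTbl1xr1 1 and 2 alone (-1.52); for Lats1 under library size alone (-0.18); for Lats2 with 1 surrogate variable (0.025) and shTbl1xr1 3 and 4 alone (0.064); for Ctgf with both of these (0.069 and 0.11); and for Amotl2 with both (0.18 and 0.28) and the depth covariate (0.074). Leaving out 1 library gave -0.31 to 0.29 for Tead4, -1.44 to 0.043 for Ctgf, -0.53 to 1.16 for Ankrd1 and -0.33 to 0.063 for Amotl2. Library size alone moved the median of all genes to -0.27, and relative to that median no member changed sign, a comparison chosen after seeing the data. Over all genes, 6 higher and 1 lower became 3 higher with library size alone, 12 higher with no filter, 234 and 39 with DESeq2, 0 lower with voom, 30 and 2 with voom and weights, 40 and 4 with 1 surrogate variable, 0 lower with shTbl1xr1 3 and 4 alone, 3073 and 3021 with shTbl1xr1 1 and 2 alone, 33 and 6 with the depth covariate, and 0 to 28 higher and 0 to 6 lower when 1 library was left out (28 and 6 without shTbl1xr1 4). The cause was not tested. Tbl1xr1 passed with DESeq2 (-2.13, adjusted p = 0.00863), 1 surrogate variable (-1.57, adjusted p = 0.0234), shTbl1xr1 1 and 2 alone (-3.88, adjusted p = 6.6e-05) and the depth covariate (-1.85, adjusted p = 0.000891).

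Libraries of the same number share only a number in the labels. Their deviations from the group means correlated at 0.379, -0.0737, 0.305 and 0.12, and 5 of 8 libraries correlated best with their own number. With the replicate block 4 genes were higher and 1 lower, and 0 members passed (smallest adjusted p 0.409, for Wwtr1 at 0.47 and Ctgf at -0.81).

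Tead4 and Ankrd1 lie near the detection floor, 0.376 and 0.414 CPM in shTbl1xr1 1 and 2, so differences in them were not resolved.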

Other observations

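Other YAP-responsive genes were read after their values were seen and are given as values only. Thbs1, the matrix protein thrombospondin, had 0.501, 0.414, 16.3 and 2.41 CPM in shTbl1xr1 1 to 4, against 2.30, 0.980, 17.3 and 2.15 CPM in shNC 1 to 4. Myof, a membrane repair protein of the ferlin family, had 0.751, 0.690, 10.02 and 2.80 CPM in shTbl1xr1 1 to 4, against 3.52, 3.63, 6.67 and 4.63 CPM in shNC 1 to 4. Spp1, osteopontin, which is also counted in the bile duct marker sum above, had 25.7, 43.9, 202 and 51.5 CPM in shTbl1xr1 1 to 4. It had 35.3, 24.1, 99.0 and 19.5 CPM in shNC 1 to 4. In each of these 3 genes library 3 was the highest of its group in both groups, as for Ctgf and Ankrd1. They were picked by their values, and other genes of the same lists did not share this. Among those were Birc5, Nuak2 and Igfbp3, in which library 3 was the highest of neither group.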
